A study of Mus musculus with 26 samples.

Results

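The change of polyadenylated RNA between 2 h and 7 h of hydrogen peroxide (H2O2) was measured in NIH3T3, a long-established fibroblast line from mouse embryos. Libraries taken after 7 h of H2O2 were set directly against libraries taken after 2 h, across every gene in the deposited table. The comparison used 4 of the 26 libraries of the series, 2 at each time, and 13256 of 20430 listed genes had enough counts to be tested. The labels describe the treatment as oxidative stress by H2O2 and name no genetic change, so all groups share the plain NIH3T3 background of a single cell line. A control group of 2 libraries, which the labels give as shared by H2O2 and KCl, was used to tell early, lasting and late changes apart. The 4 libraries from cells under osmotic stress by KCl for 2 h or 7 h served to ask whether a change over time was shared by another stress. The series concerns transcription that runs past its normal end into a neighbouring gene during stress. Concentrations of H2O2 and KCl were not given in the sources used here.

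Hydrogen peroxide oxidizes proteins, lipids and DNA, and cells answer in waves. Immediate early genes, which encode short-lived transcription factors and signals and need no new protein for their induction, come first and are then shut off by phosphatases, by inhibitors of NF-kB and by decay of their mRNAs. Damage to DNA stabilizes the transcription factor p53, whose targets arrest the cell cycle, repair DNA or promote cell death, while NRF2 and ATF4 drive antioxidant and amino acid genes.

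The 4 H2O2 libraries held between 24606586 and 33106958 expected counts per library. Replicate libraries of the 5 groups fitted correlated with Pearson's r of 0.9969 to 0.9985 over all genes (genes of 1 library are not independent), and no pair held identical values. The labels number the replicates without saying that they came from separate cultures, so p-values measure only the spread between these samples, which may be technical. RNA was measured relative to the total of each library, so fewer cells of a kind and less RNA per cell cannot be told apart. Markers of fibroblasts were present throughout, with a summed level of 10721 to 10738 TPM (transcripts per 1000000 transcripts, a unit that accounts for gene length) in the control, 9905 to 10200.2 TPM at 2 h and 4985 to 5019 TPM at 7 h. Of 20 markers of other cell types, 11 stayed under 1 TPM in the 6 control and H2O2 libraries, and 1 of them, Adgre1, was at 0 throughout. The highest was Cd68, a macrophage and lysosome marker, with 9.98 and 9.59 TPM in the control, 29.6 and 28.0 TPM at 2 h and 44.7 and 42.6 TPM at 7 h.

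Between 2 h and 7 h most of the measured transcriptome shifted, in both directions. With the quasi-likelihood test of edgeR and a Benjamini-Hochberg adjusted p below 0.05 (a gene so found is termed called below), 9730 of 13256 genes differed, which is 73.4% of the genes tested. Of these, 4946 were higher at 7 h (37.3%) and 4784 were lower (36.1%). The counts of list members called in RNA between the times are read below against these shares of all genes. A change of at least 2-fold was met by 1891 genes that rose (14.3%) and 1626 that fell (12.3%). The median log2 fold change of all genes tested was 4.1e-04, a value that the scaling sets near 0. The 7 h libraries both lay above the 2 h libraries in counts per 1000000 counts (CPM) for 44.2% of genes and both below for 43.5%.

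Set against the control, these changes fell into separate time courses. Classes required a called change of at least 2-fold, which at 2 h against the control was met by 11.0% of genes upward and 2.32% downward, and at 7 h against the control by 16.4% and 6.93%. Because the contrasts share libraries, the classes are a description without a test. The class with most genes among those that changed was late up, with 1113 that lay within 2-fold of the control at 2 h and were higher at 7 h than at both. The mirror class, late down, held 579 genes. A transient rise, with a return to within 2-fold of the control by 7 h, was found for 439 genes, and a transient fall for 144. A further 211 genes had receded by 7 h but still stood above the control, 281 genes stayed up within 2-fold between the times, and 178 genes were up at 2 h and rose further. The numbers up at 2 h that then ended below the control (reversing up, 26 genes) and down at 2 h that ended above it (reversing down, 31 genes) were small. Sustained, growing and receding falls comprised 54, 9 and 3 genes. The classes also differed in their starting level, since the median control level was 0.430 TPM for transient up genes and 5.55 TPM for late up genes, against 20.7 TPM for all genes tested. In the late up class 37 genes had no counts in both control and both 2 h libraries, and leaving their fold change at its lower bound kept the class median at 1.88.

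**Figure D1:**
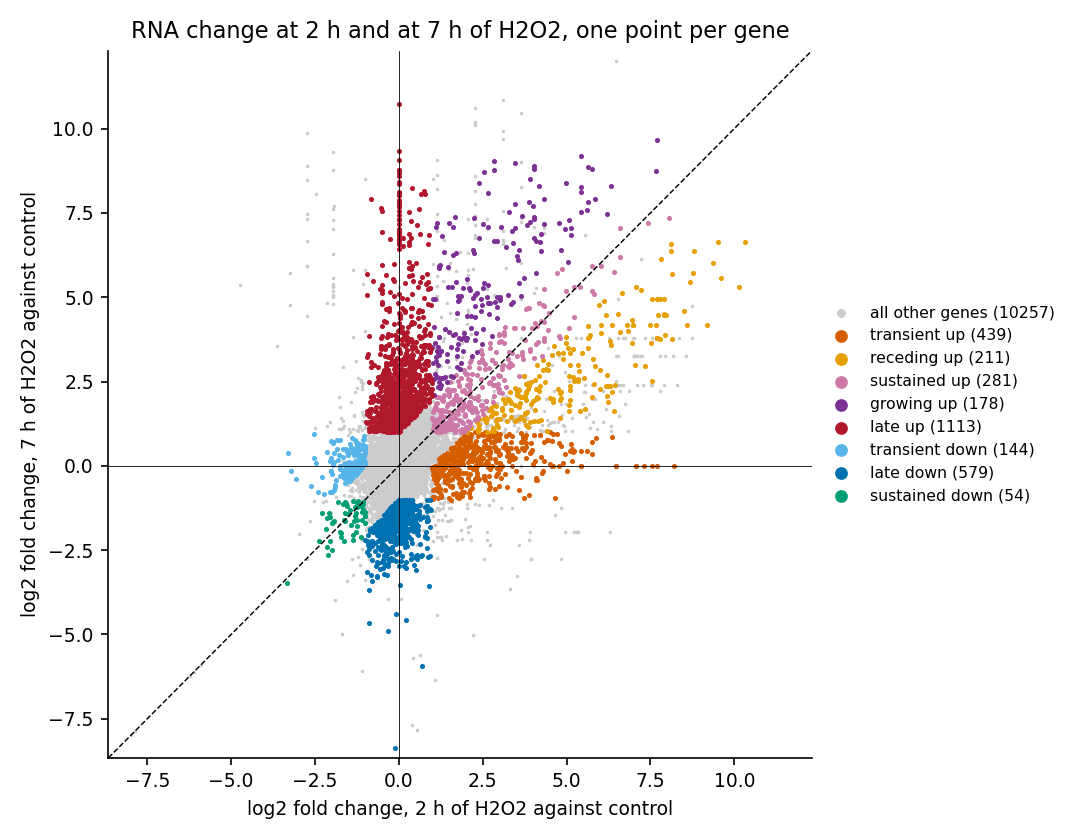
Log2 fold change of RNA at 2 h of H2O2 against the control (x axis) and at 7 h against the control (y axis), with 1 point per gene tested and the 8 largest classes in colour. Points above the dashed line of equality were higher at 7 h than at 2 h. The 1113 late up genes rise along the vertical axis and the 439 transient up genes lie along the horizontal axis, and points stacked in vertical or horizontal lines are genes with few or no counts in a group. Both axes use the same control libraries.

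The steepest rises belonged to genes that were nearly silent at 2 h. Where the average log2 CPM reached 3 and the libraries of both times were apart, the largest rises included those of 11 genes, Zfp750, Sec14l5, Tbc1d8, Ddit4l, Kcnj4, Palm3, Celf5, Mmp15, Atg9b, Jag2 and Tex15, with log2 fold changes from 7.86 down to 5.04. Zfp750, a zinc finger transcription factor known from epidermal differentiation, was at 0.285 and 0.0887 CPM at 2 h and at 45.0 and 41.9 CPM at 7 h. Control libraries held 0.103 and 0.183 CPM, so the 2 h libraries overlapped the control and only the 7 h libraries stood apart. The log2 fold change of 7.86 (SE 0.21) corresponds to 232-fold (edgeR's F test, adjusted p after Benjamini-Hochberg 5.40e-13). Sec14l5, of the SEC14-like lipid-binding proteins, went from 0.539 and 0.384 CPM to 73.4 and 71.5 CPM, a log2 fold change of 7.29 (SE 0.16). Tbc1d8, which carries the TBC domain of Rab GTPase activators, went from 1.24 and 1.21 CPM to 141 and 151 CPM, a log2 fold change of 6.89 (SE 0.11). Neither gene had differed by 2-fold from the control at 2 h.

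Several of the other steep rises encode proteins of signalling and membranes. Jag2, a ligand of Notch receptors, stood at 5.52 and 4.67 CPM at 2 h, above the 1.10 and 1.05 CPM of the control, and reached 173 and 179 CPM at 7 h. It was therefore in the growing class, like Ddit4l (an inhibitor of mTOR signalling), Kcnj4 (a potassium channel) and Celf5 (an RNA-binding protein). Sytl1, a Rab effector in vesicle transport, completed the top 5 of the growing genes whose average log2 CPM reached 3. It had 2.22 and 1.95 CPM at 2 h and 55.7 and 54.7 CPM at 7 h. Atg9b, a relative of the autophagy protein ATG9, was the most abundant of the 11 at 7 h, with 375 and 380 CPM against 10.4 and 9.08 CPM at 2 h. Mmp15, a membrane-bound metalloproteinase, went from 4.16 and 4.17 CPM to 176 and 179 CPM. Footprints (fragments of mRNA covered by ribosomes, sequenced from other libraries) of all 11 genes were also called higher at 7 h than at 2 h. Sec14l5 had no footprints in both 2 h libraries, and Tbc1d8, Palm3 and Jag2 none in 1 of them, so these genes passed the filter through their 7 h libraries and their folds are not given. The other genes also had few footprints at 2 h, from 0.388 CPM (Celf5, replicate 2) to 3.33 CPM (Mmp15, replicate 1). Their footprint log2 fold changes, between 4.35 for Celf5 and 6.42 for Kcnj4, thus rest on few 2 h counts and are imprecise. The footprint calls of the 11 genes are a description and no separate support.

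**Figure D2:**
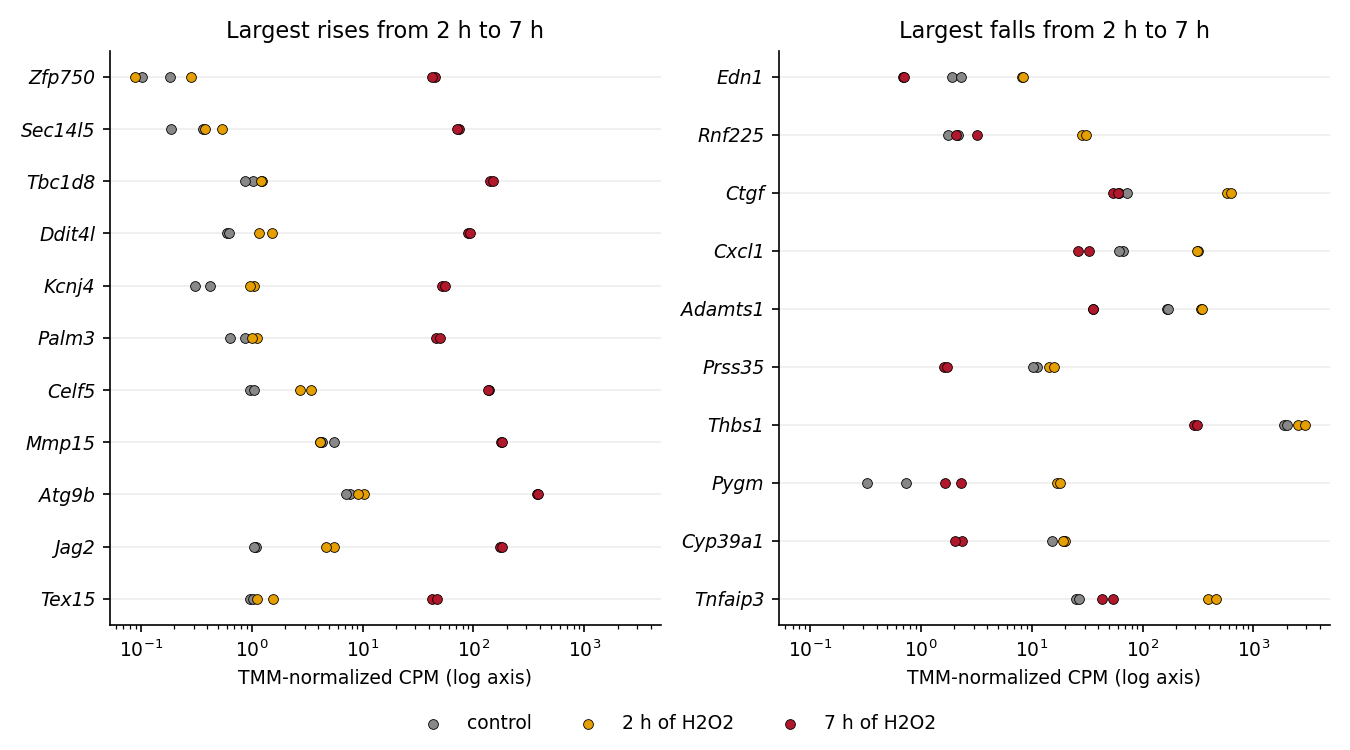
CPM after TMM normalization (x axis, log scale) of 11 genes among the largest rises (left) and 10 among the largest falls (right) from 2 h to 7 h of H2O2, with 1 point per library. For the genes on the left the 7 h libraries sit far to the right of control and 2 h. For several genes on the right, such as Rnf225, Ctgf and Tnfaip3, the 2 h libraries stand above both the control and the 7 h libraries.

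The largest falls were mostly returns from a peak at 2 h. They included 10 genes, Edn1, Rnf225, Ctgf, Cxcl1, Adamts1, Prss35, Thbs1, Pygm, Cyp39a1 and Tnfaip3, with log2 fold changes from -3.55 to -3.13. Ctgf, a secreted matricellular protein, had 580 and 629 CPM at 2 h and 54.1 and 59.7 CPM at 7 h. Its control libraries held 61.6 and 72.4 CPM, so that the 7 h libraries had come down to just below the control. The log2 fold change from 2 h to 7 h was -3.41 (SE 0.089; edgeR's F test, adjusted p after Benjamini-Hochberg 5.50e-13). Pygm, the muscle form of glycogen phosphorylase, fell from 17.0 and 18.2 CPM to 1.67 and 2.33 CPM and remained above its control of 0.331 and 0.734 CPM.

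Other genes of this group ended below the control. Edn1, which encodes the vasoconstrictor endothelin, had 1.92 and 2.33 CPM in the control, 8.22 and 8.31 CPM at 2 h and 0.698 and 0.712 CPM at 7 h. Adamts1, a secreted metalloproteinase, went from 167 and 170 CPM in the control to 335 and 342 CPM at 2 h and 35.8 and 36.1 CPM at 7 h. Cxcl1 likewise peaked at 2 h and fell under the control, and the 3 groups of libraries did not overlap for any of these 3 genes. Thbs1, Prss35 and Cyp39a1 had no 2-fold rise at 2 h. Thbs1, the matrix protein thrombospondin, had 1890 and 2001 CPM in the control and 2506 and 2895 CPM at 2 h, and fell to 293 and 310 CPM at 7 h. Among late down genes whose average log2 CPM reached 3, these 3 genes fell most. Next came Sema3a, a secreted guidance protein, at a log2 fold change of -3.05 (SE 0.098), and the sodium/potassium/calcium exchanger gene Slc24a3 at -2.97 (SE 0.079).

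Immediate early transcription factors fell together between the times. Of 25 members tested, 21 were called lower at 7 h and 4 higher, against 36.1% and 37.3% of all genes, and their median log2 fold change was -1.29. Atf3, a stress-induced member of the ATF family, had 287 and 290 CPM at 2 h and 49.6 and 60.9 CPM at 7 h, still above the 8.67 and 8.65 CPM of the control. Its log2 fold change was -2.39 (SE 0.080). Fosb, a subunit of AP-1, likewise receded, from 66.6 and 80.1 CPM to 11.5 and 13.7 CPM, with 1.41 and 2.20 CPM in the control. The largest falls of the list were those of Nr4a3, at -3.12 (SE 0.14), and Csrnp1, at -2.83 (SE 0.094). Nr4a3, an orphan nuclear receptor, ended below the control, at 1.73 and 1.78 CPM against 5.73 and 5.14 CPM. The classes of the list were 9 transient up, 8 receding up, 3 sustained up, 1 reversing up, 2 transient down and 2 in no class.

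The members that rose were Fos, Fosl1, Klf2 and Ier5l. Fos, the best known immediate early gene, had 4.03 and 4.19 CPM in the control, 20.7 and 22.6 CPM at 2 h and 28.7 and 33.0 CPM at 7 h, and between the times it rose by 0.51 (SE 0.087) on the log2 scale. It thus differed in course from its partner Jun, which fell from 389 and 390 CPM to 175 and 175 CPM. Klf2 and Ier5l had been below the control at 2 h and were back near it at 7 h. Among MAP kinase phosphatases and inhibitors of ERK signalling, which act as feedback on the same pathway, 10 of 16 were called lower and 4 higher, with a median of -0.62. Dusp8, which acts on stress kinases, fell from 88.1 and 101 CPM to 15.4 and 18.6 CPM, and Spry2, an inhibitor of receptor tyrosine kinase signalling, from 167 and 164 CPM to 36.8 and 38.5 CPM. The ERK phosphatase Dusp6 went the other way, from 31.5 and 30.0 CPM to 54.7 and 60.9 CPM, as did Spred2, Dusp7 and Spry1.

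Secreted signals mostly fell. Of 30 cytokines, chemokines and growth factors tested, 20 were called lower at 7 h and 7 higher, with a median of -1.08. Cxcl2, a neutrophil chemokine, had 4.31 and 5.17 CPM at 2 h and 0.182 and 0.158 CPM at 7 h, where it had returned to the 0.0827 and 0.183 CPM of the control. The log2 fold change was -4.76 (SE 0.34). Cxcl1 fell from 315 and 311 CPM to 26.4 and 33.2 CPM, and Ccl2, a monocyte chemokine, from 895 and 816 CPM to 193 and 218 CPM. Lif, a cytokine of the IL-6 family, stood at 985 and 953 CPM at 2 h and still at 368 and 460 CPM at 7 h, against 13.3 and 17.4 CPM in the control. Gdf15, a stress-induced hormone that is also a p53 target, went from 1.14 and 1.39 CPM to 7.16 and 7.71 CPM. Areg, an EGF receptor ligand, rose from 25.1 and 22.5 CPM to 43.3 and 46.4 CPM, and Btc, Fgf2, Fgf21, Stc2 and Tgfa were also called higher. Of these, 3 low ones lost the call without 1 library, with adjusted p in edgeR of 0.134 for Fgf2 (without 2 h replicate 2), of 0.134 and 0.378 for Fgf21 and of 0.0847 and 0.409 for Tgfa (without 2 h replicate 1 and without 7 h replicate 1). With DESeq2 the adjusted p was 0.0531 for Fgf2 and 0.0726 for Fgf21, and with limma on log2(TPM + 0.1) it was 0.149 for Fgf21 and 0.0963 for Tgfa.

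Genes that restrain NF-kB or degrade mRNAs of cytokines fell as well, with 10 of 15 called lower, 2 higher and a median of -0.68. Tnfaip3, which encodes the ubiquitin-editing inhibitor A20, had 24.9 and 26.8 CPM in the control, 385 and 462 CPM at 2 h and 43.1 and 54.2 CPM at 7 h. The 3 groups did not overlap, and the fall from 2 h had a log2 fold change of -3.13 (SE 0.10). Zfp36, which recruits mRNA decay to AU-rich elements, fell from 81.4 and 94.2 CPM to 23.6 and 27.3 CPM, and Nfkbia, the IkB alpha inhibitor, from 209 and 234 CPM to 106 and 118 CPM. Nfkb2 and Zfp36l1 rose, at log2 fold changes of 0.35 and 0.54.

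The promoters of Cxcl2 and Tnfaip3 are shown because both genes peaked at 2 h and their windows hold matches to the NF-kB site, searched on both strands under that name. Sequences are those of RefSeq on build GRCm38.p6, from 250 bases before to 50 bases after an annotated start, written 5′ to 3′ in the direction of the gene. The Cxcl2 window lies at chr5:90903649-90903948 on the + strand and holds 2 overlapping matches, the first starting at position -97 from the start site. The Tnfaip3 window, at chr10:19015361-19015660 on the - strand, is 1 of 2 listed for the gene and holds 2 separate matches, the first at position -125. Capitals mark the matches. The same search found a match in 5.41% of the 13078 promoter windows of tested genes, so a match describes these letters and no binding.
Cxcl2: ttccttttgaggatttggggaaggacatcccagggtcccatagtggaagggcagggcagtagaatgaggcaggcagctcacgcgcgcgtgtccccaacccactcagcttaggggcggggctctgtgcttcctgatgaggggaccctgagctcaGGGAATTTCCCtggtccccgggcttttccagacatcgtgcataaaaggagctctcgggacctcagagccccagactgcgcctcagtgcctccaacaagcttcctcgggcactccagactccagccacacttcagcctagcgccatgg
Tnfaip3: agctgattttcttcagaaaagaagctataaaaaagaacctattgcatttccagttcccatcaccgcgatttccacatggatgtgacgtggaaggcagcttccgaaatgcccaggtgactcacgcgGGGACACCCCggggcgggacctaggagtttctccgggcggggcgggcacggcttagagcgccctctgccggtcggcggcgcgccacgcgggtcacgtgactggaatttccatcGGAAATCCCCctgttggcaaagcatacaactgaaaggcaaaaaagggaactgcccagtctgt

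The p53 targets were the list with the highest median rise. Of 41 genes, 37 were called higher at 7 h than at 2 h and 2 lower, with a median log2 fold change of 2.31, and 31 rose by at least 2-fold, against 14.3% of all genes. Cdkn1a, the cyclin-dependent kinase inhibitor p21, had 31.4 and 33.5 CPM in the control, 105 and 104 CPM at 2 h and 1397 and 1429 CPM at 7 h. The 3 groups did not overlap, and the log2 fold change from 2 h to 7 h was 3.76 (SE 0.071; edgeR's F test, adjusted p after Benjamini-Hochberg 3.64e-14). Mdm2, the ubiquitin ligase that degrades p53, went from 261 and 260 CPM to 2119 and 2413 CPM. Ccng1, an atypical cyclin, had 68.0 and 67.2 CPM in the control and 70.4 and 73.1 CPM at 2 h, and reached 909 and 932 CPM at 7 h, so its rise fell entirely between the times. Ccng1 was 1 of 23 late up genes in the list, beside 7 growing up, 2 sustained up and 2 receding up.

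Members with other roles rose too. Rprm, an inhibitor of the G2 to M transition, had the largest rise of the list, from 0.666 and 0.532 CPM to 33.0 and 29.4 CPM (log2 fold change 5.70, SE 0.20). Dcxr, a carbonyl reductase, went from 4.35 and 4.14 CPM to 133 and 117 CPM, and Trp53inp1, a p53 cofactor in cell death and autophagy, from 16.5 and 17.7 CPM to 253 and 296 CPM. The pro-apoptotic Bax was at 77.8 and 75.1 CPM at 2 h and at 206 and 191 CPM at 7 h. The polo-like kinase genes Plk2 and Plk3 fell, Plk2 from 1688 and 1801 CPM to 523 and 610 CPM, after a rise from 188 and 207 CPM in the control. Sesn2, which ATF4 and NRF2 also induce, was already at 188 and 173 CPM at 2 h and had 182 and 175 CPM at 7 h, and it was not called. The mRNA of p53 itself, Trp53, had a log2 fold change of 0.75 (SE 0.067). Of 15 members of the BCL2 family tested, 8 were called higher and 3 lower (37.3% and 36.1% of all genes), with a median of 0.23. Of these 15, Bax, Bbc3 and Pmaip1 are also in the p53 list. Bcl2, a survival factor, fell from 8.22 and 10.2 CPM to 3.70 and 3.52 CPM.

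The windows of Cdkn1a and Ccng1 are shown because these genes rose steeply between the times and hold matches to the p53 decamer, the unit of which a pair makes a full p53 element. The search was by that name and on both strands. The Cdkn1a window shown lies at chr17:29090729-29091028 on the + strand, is 1 of 2 listed and holds 2 matches, the first at position -73. The Ccng1 window, at chr11:40755237-40755536 on the - strand, holds 1 match at position -185. Of all windows 6.93% held a match. In the list only 31 of 41 genes had a window, and 12 of their 41 windows held a match (29.3%). This share leaves out the genes without a window and is a description without a test. An unspaced pair of decamers was found in 0 of the 41 windows of those genes and in 1 of the 13078 windows of all genes. Capitals mark the matches.
Cdkn1a: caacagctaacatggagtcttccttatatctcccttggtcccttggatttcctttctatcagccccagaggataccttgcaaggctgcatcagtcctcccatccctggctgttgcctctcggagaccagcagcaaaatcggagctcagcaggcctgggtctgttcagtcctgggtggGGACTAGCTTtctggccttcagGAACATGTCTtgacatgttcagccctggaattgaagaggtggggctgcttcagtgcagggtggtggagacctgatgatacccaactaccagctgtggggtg
Ccng1: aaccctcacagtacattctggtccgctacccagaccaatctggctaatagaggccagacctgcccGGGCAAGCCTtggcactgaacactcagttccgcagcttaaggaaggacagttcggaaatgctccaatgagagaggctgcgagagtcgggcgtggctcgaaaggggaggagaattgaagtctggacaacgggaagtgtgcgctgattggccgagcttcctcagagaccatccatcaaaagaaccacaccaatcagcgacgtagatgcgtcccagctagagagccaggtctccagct

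**Figure D3:**
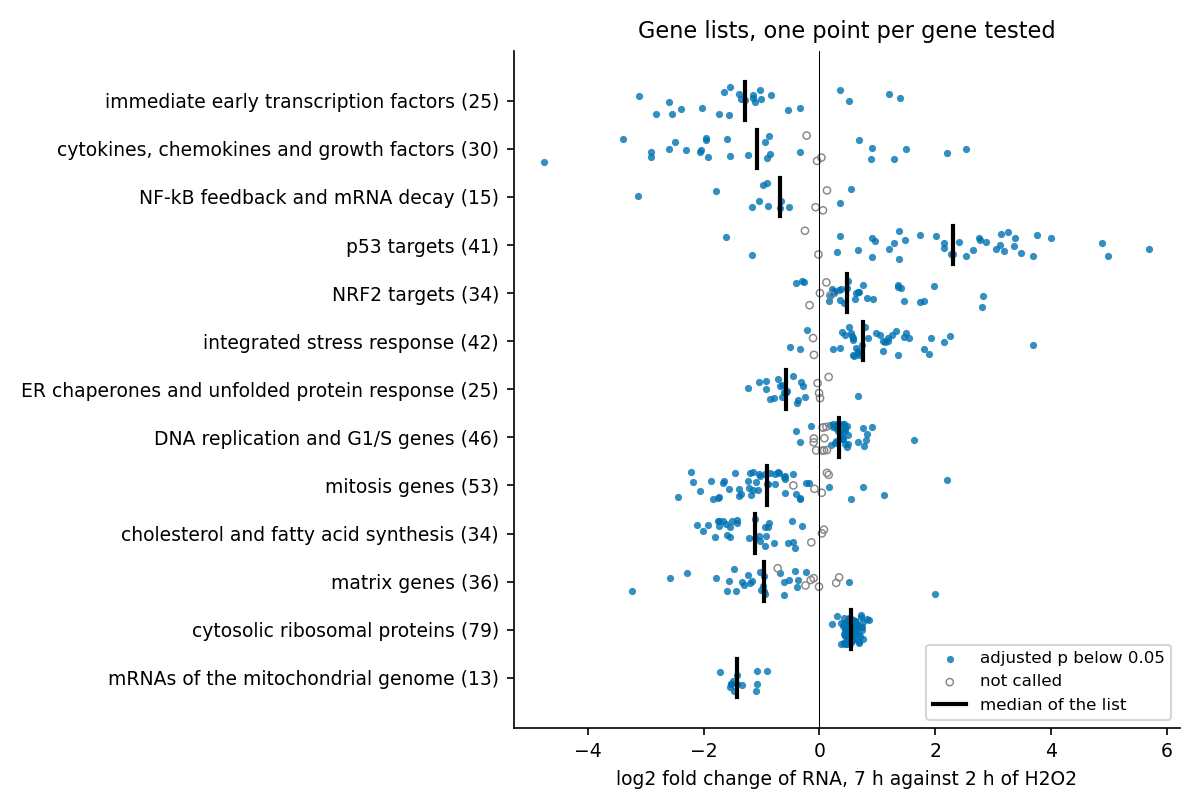
Log2 fold change of RNA from 2 h to 7 h of H2O2 (x axis) for 13 gene lists, with 1 point per gene tested, filled where the adjusted p was below 0.05, and a black bar at the median of each list. The p53 targets extend to the right with a median of 2.31. Immediate early genes, mitosis genes, genes of cholesterol synthesis and mRNAs of the mitochondrial genome lie mostly or entirely to the left, and the 79 ribosomal protein genes form a narrow group at 0.54.

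The antioxidant and amino acid programmes mostly rose between the times. Of 34 NRF2 targets tested of 36 listed, 27 were called higher and 3 lower, with a median of 0.48. Members differed in timing. Slc7a11, the cystine importer, was already at 132 and 146 CPM at 2 h and had 144 and 159 CPM at 7 h, so that the times overlapped, and it was not called. Hmox1, heme oxygenase, went from 943 and 857 CPM to 678 and 786 CPM, a log2 fold change of -0.30 (SE 0.082) whose call was lost without 7 h replicate 1 (edgeR, adjusted p 0.0658). Nqo1, a quinone reductase, was late, with 51.4 and 46.7 CPM in the control, 53.5 and 50.0 CPM at 2 h and 220 and 190 CPM at 7 h. Gsta4, a glutathione transferase for lipid peroxidation products, went from 4.31 and 3.70 CPM to 31.4 and 25.2 CPM, and the carbonyl reductase gene Cbr3 from 3.93 and 4.35 CPM to 30.3 and 27.7 CPM.

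Genes of the integrated stress response, which follow phosphorylation of eIF2 alpha and synthesis of ATF4, were called higher in 37 of 42 cases and lower in 3, with a median of 0.76. Cth, which makes cysteine by transsulfuration, had the largest rise, from 11.4 and 12.4 CPM to 152 and 154 CPM (log2 fold change 3.68, SE 0.083). Asns, asparagine synthetase, went from 135 and 138 CPM to 349 and 338 CPM, and Ddit3, the transcription factor CHOP, from 54.9 and 46.9 CPM to 126 and 118 CPM. Atf4 itself moved little, from 555 and 538 CPM to 645 and 644 CPM. Chac1, Ppp1r15a and Slc7a1 were the members called lower, at log2 fold changes of -0.34, -0.22 and -0.50, of which the call of Ppp1r15a was lost without 7 h replicate 1 (edgeR, adjusted p 0.0723). Chaperones of the endoplasmic reticulum and other genes of the unfolded protein response went the opposite way. Of 25 tested, 20 were called lower and 1 higher, with a median of -0.57. Hspa5, the chaperone BiP, had 1498 and 1367 CPM in the control, 2553 and 2502 CPM at 2 h and 1148 and 1302 CPM at 7 h, and Xbp1, a transcription factor of this response, fell from 48.2 and 44.0 CPM to 20.6 and 18.6 CPM. The member called higher was Edem1, which sends misfolded glycoproteins to degradation. Chaperones under HSF1 had no common direction, with 8 of 23 called higher, 10 lower and a median of -0.072, near the shares of all genes (37.3% and 36.1%).

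Genes of mitosis and of DNA replication parted. Of 53 mitosis genes, 43 were called lower at 7 h and 5 higher, with a median of -0.91, and 25 were in the late down class. Plk1, the kinase of mitotic entry, had 130 and 133 CPM in the control, 70.2 and 67.3 CPM at 2 h and 16.1 and 13.5 CPM at 7 h, and the groups did not overlap. Its log2 fold change between the times was -2.21 (SE 0.092). Ccnb2, a cyclin of mitosis, went from 87.1 and 83.4 CPM to 26.1 and 25.3 CPM, and Nusap1, a spindle protein, from 84.3 and 84.3 CPM to 14.7 and 16.4 CPM. Ccnf was the exception with the largest rise, from 27.4 and 26.5 CPM to 125 and 124 CPM, after it had dropped from 113 and 112 CPM in the control. It encodes cyclin F, a subunit of an SCF ubiquitin ligase.

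Of 46 genes of DNA replication and the G1 to S transition, 33 were called higher and 3 lower, but with a median of only 0.33. Rrm2, a subunit of ribonucleotide reductase, was the sole member with a 2-fold rise, from 153 and 155 CPM to 452 and 498 CPM. Pcna, the polymerase clamp, went from 420 and 395 CPM to 529 and 477 CPM. Of 37 genes for repair of breaks and crosslinks 23 were called higher and 3 lower (median 0.34), among them the gene of the structure-specific nuclease Mus81, from 14.0 and 13.6 CPM to 39.4 and 38.3 CPM, and the checkpoint kinase gene Chek2, from 17.0 and 17.5 CPM to 52.5 and 47.2 CPM. Of 68 replication-dependent histone genes 24 passed the filter on low counts. Of these, 4 were called higher and 8 lower (median -0.32), against 37.3% and 36.1% of all genes. Most of their transcripts have no polyA tail, so these libraries capture them in part.

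The mitosis genes also shared letters in their promoters. CHR (TTTGAA, both strands), the element recognized by the DREAM and MuvB complexes, was found in 75.5% of 49 windows of 45 matched mitosis genes, against 11.8% of the windows of all genes tested. CCAAT, also on both strands, was found in 75.5% of the mitosis windows and in 37.5% of all windows. It was not particular to the mitosis list. Of 31 windows of 24 matched genes of cholesterol and fatty acid synthesis, 71.0% held CCAAT and 9.68% CHR. Mitosis genes are known to carry these elements, and the shares are descriptions without a test. The window of Ccnb2 lies at chr9:70421505-70421804 on the - strand with 2 CHR matches, the first at position -167, and that of Plk1 at chr7:122159185-122159484 on the + strand with 1 match at position 30. Capitals mark CHR in both.
Ccnb2: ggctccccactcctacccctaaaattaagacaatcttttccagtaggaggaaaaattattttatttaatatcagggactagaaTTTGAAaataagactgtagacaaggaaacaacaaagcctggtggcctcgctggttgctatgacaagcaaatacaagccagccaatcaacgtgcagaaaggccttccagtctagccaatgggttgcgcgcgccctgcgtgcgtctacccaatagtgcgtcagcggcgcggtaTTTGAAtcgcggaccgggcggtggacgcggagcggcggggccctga
Plk1: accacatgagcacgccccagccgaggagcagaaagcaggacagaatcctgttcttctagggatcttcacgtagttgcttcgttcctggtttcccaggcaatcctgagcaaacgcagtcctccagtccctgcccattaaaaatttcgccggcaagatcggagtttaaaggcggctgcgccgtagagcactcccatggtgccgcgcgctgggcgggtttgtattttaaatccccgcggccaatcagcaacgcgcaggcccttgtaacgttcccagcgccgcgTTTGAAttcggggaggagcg

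Genes of lipid synthesis and many genes of matrix and cytoskeleton fell. None of 34 genes of cholesterol and fatty acid synthesis was called higher and 31 were called lower, with a median of -1.11. Insig1, the sterol sensor of the SREBP pathway, was at 240 and 232 CPM in the control and 240 and 228 CPM at 2 h, and fell to 54.7 and 54.0 CPM at 7 h. Elovl6, a fatty acid elongase, had 151 and 144 CPM in the control and went from 118 and 129 CPM at 2 h to 33.4 and 31.3 CPM at 7 h. Scd2, a fatty acid desaturase, went from 1702 and 1871 CPM to 498 and 524 CPM, against 2307 and 2178 CPM in the control. Most of the drop of these 3 genes thus came after 2 h, and 20 of its members were late down. Mvd, Acss2 and Dhcr7 were not called, at log2 fold changes of -0.14, 0.043 and 0.078.

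Of 36 matrix genes tested, 27 were called lower and 2 higher, with a median of -0.95. Col1a1, the main chain of type I collagen, had 5062 and 5198 CPM at 2 h and 1986 and 2072 CPM at 7 h, and Eln, elastin, was among the exceptions, from 0.444 and 0.266 CPM to 1.36 and 1.46 CPM. Targets of SRF, YAP and TGF-beta, which report on actin and cell tension, were called lower in 20 of 31 cases and higher in 7 (median -0.81). Ankrd1 and Cyr61, both used as YAP reporters, returned from peaks at 2 h, Ankrd1 from 63.7 and 71.3 CPM to 10.6 and 11.4 CPM and Cyr61 from 1282 and 1291 CPM to 265 and 329 CPM. The fibroblast markers, which share collagens and Fn1 with the matrix list, were called lower in 11 of 12 cases (median -0.95), with Pdgfrb, a PDGF receptor, falling most, from 136 and 125 CPM to 27.4 and 29.3 CPM. Beside this, the summed level of the 12 tested markers of other cell types was 43.3 to 44.7 TPM in the control, 76.9 to 77.9 TPM at 2 h and 92.8 to 95.4 TPM at 7 h, with 3 called higher and 6 lower (median -0.79). Cd68 and Tubb3 made up most of that sum. The part of other cells in these changes was not tested.

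The 13 mRNAs of the mitochondrial genome and the mRNAs of cytosolic ribosomal proteins moved in opposite directions. All 13 mitochondrial mRNAs were called lower at 7 h, with a median of -1.43. COX1, a subunit of cytochrome oxidase, had 7100.0 and 5924 CPM in the control, 4203 and 4292 CPM at 2 h and 1609.5 and 1761 CPM at 7 h. Mitochondrial mRNAs took 2.54% to 3.02% of all counts in the control, 1.93% to 1.99% at 2 h and 0.689% to 0.768% at 7 h. Of 64 subunits of the respiratory chain that are encoded in the nucleus, 30 were called higher and 10 lower, with a median of 0.16, and the difference between both kinds of subunit was not tested. All 79 ribosomal protein genes tested were called higher, with a median of 0.54 and a narrow range, from 0.21 for Rpl10 to 0.86 for Rps20. The call of Rpl10 was lost without 2 h replicate 1 or 7 h replicate 1 (edgeR, adjusted p 0.132 and 0.0861). It was also lost with upper quartile factors (adjusted p 0.0565), with a filter of 1 CPM in 4 libraries (0.0546), in the fit of 6 libraries (0.0738) and in limma on log2(TPM + 1) or log2(TPM + 0.1) (0.117 and 0.118), where 78 ribosomal protein genes were called. Proteasome subunits were called higher in 14 of 33 cases and lower in 2, with a median of 0.10. Of all genes 37.3% were called higher and 36.1% lower.

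Numbered zinc finger genes (Zfp and a number), a family of mostly KRAB-type DNA-binding proteins, were called higher in 215 of 332 cases and lower in 47, with a median of 0.67. Of the 144 transient down genes 52 were of this family. Zfp937 was the first of that class by size among genes whose average log2 CPM reached 3. It had 9.22 and 9.07 CPM in the control, 2.54 and 2.60 CPM at 2 h and 15.0 and 16.6 CPM at 7 h. Patz1, a zinc finger transcription repressor outside this naming, followed, from 9.04 and 8.87 CPM to 44.5 and 44.2 CPM, ahead of the lipase gene Lipe, Ccnf and the ephrin gene Efna1. Zinc finger genes of 1 family share sequence, which makes the counts of single members uncertain.

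The remaining lists moved in both directions, and their shares are read against 37.3% higher and 36.1% lower of all genes. Clock genes were called lower in 12 of 22 cases and higher in 5 (median -0.28), with a fall of Bhlhe40 from 470 and 464 CPM to 64.1 and 66.7 CPM and a rise of its paralogue Bhlhe41 from 6.76 and 6.18 CPM to 28.0 and 30.7 CPM. Both encode repressors of the clock. Autophagy and lysosome genes were called higher in 18 of 48 cases and lower in 15 (median 0.014), near the shares of all genes, and Ulk1, the kinase that starts autophagy, rose most, from 57.8 and 60.5 CPM to 328 and 331 CPM. Splicing kinases and SR proteins were called higher in 4 of 18 cases and lower in 11 (median -0.17), with Clk3, a kinase of SR proteins, rising from 38.7 and 35.9 CPM to 83.7 and 81.0 CPM. Nuclear noncoding RNAs and snoRNA hosts were called higher in 9 of 19 cases and lower in 6 (median 0.096). Of 6 genes of metallothioneins and zinc export 2 were called higher and 3 lower (median -0.20).

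A part of the early response persisted. Among sustained up genes whose average log2 CPM reached 3, Tent4b, Areg, Apol8, Slc7a11 and Aldh1a3 led by their level over the control. Aldh1a3, which makes retinoic acid, had 1.22 and 1.44 CPM in the control, 15.3 and 13.9 CPM at 2 h and 23.4 and 21.5 CPM at 7 h. Tent4b, a poly(A) polymerase, is also listed under its older symbol Papd5, and the rows went opposite ways, Tent4b from 16.8 and 33.5 CPM to 48.2 and 52.3 CPM and Papd5 from 58.5 and 45.7 CPM to 25.5 and 26.6 CPM. Neither row is thus the value of the whole gene, and the call of Tent4b (edgeR's F test, adjusted p after Benjamini-Hochberg 0.0296) was lost without 2 h replicate 1 (adjusted p 0.213) and without either 7 h replicate (0.0644 and 0.0945), and also with DESeq2 (0.723) and limma on log2(TPM + 0.1) (0.393). Among receding genes whose average log2 CPM reached 3, the largest falls were those of Pygm, Fosb, Ptger4 (a prostaglandin receptor), Atf3 and Spry2.

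Ribosome footprints give another readout of the same comparison, from separate and shallower libraries of 1460751 to 5168537 expected counts at 2 h and 3171340 to 3326692 at 7 h. Of 10545 genes tested, 3139 were called between the times (29.8%), 1967 higher (18.7%) and 1172 lower (11.1%). The RNA classes were set beside these calls as a description, since a gene near 0 at 2 h passes the filter only through 7 h. Of 827 late up genes tested in footprints, 718 were called higher and 0 lower, and of 431 late down genes 281 were called lower and 0 higher. Footprints of transient up genes were tested for 111 of 439, with 61 called lower and 0 higher, and those of transient down genes for 105, with 65 higher and 1 lower. Of 2821 genes called in both readouts, 2767 had the same direction.

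Some lists had other counts in footprints than in RNA. Although all 79 ribosomal protein genes were called higher in RNA, of 78 tested in footprints 1 was called higher and 10 lower (footprint median -0.29). Of all genes tested in both readouts 18.8% were called higher in footprints and 11.0% lower. In simulated footprints, with 200 of 10545 genes changed, 1.52% of changes by 0.5 on the log2 scale were recovered. In the real footprints 29.8% of genes were called, so this share does not carry over to them. How many changes of that size were missed was not tested. The ribosomal protein genes made up 10 of the 27 genes called higher in RNA and lower in footprints. Of 64 nuclear subunits of the respiratory chain 2 were called higher in footprints and 10 lower (median -0.28). Of 25 genes for chaperones of the endoplasmic reticulum and the unfolded protein response 2 were called higher and 0 lower (median -0.21). The differences between the readouts were not tested. The p53 targets had 29 of 39 called higher in footprints and 1 lower (median 2.70), mitosis genes 4 higher and 31 lower of 52 (median -0.93), and genes of cholesterol synthesis 26 lower of 34 (median -1.11). All 13 mitochondrial mRNAs were called lower in footprints, with a median of -1.78. Of 41 integrated stress response genes 17 were called higher and 1 lower, the latter being Atf4, with a footprint log2 fold change of -0.69 against 0.24 in RNA. Without 7 h replicate 1 or 7 h replicate 2 the number of footprint calls was 1828 or 1871.

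**Figure D4:**
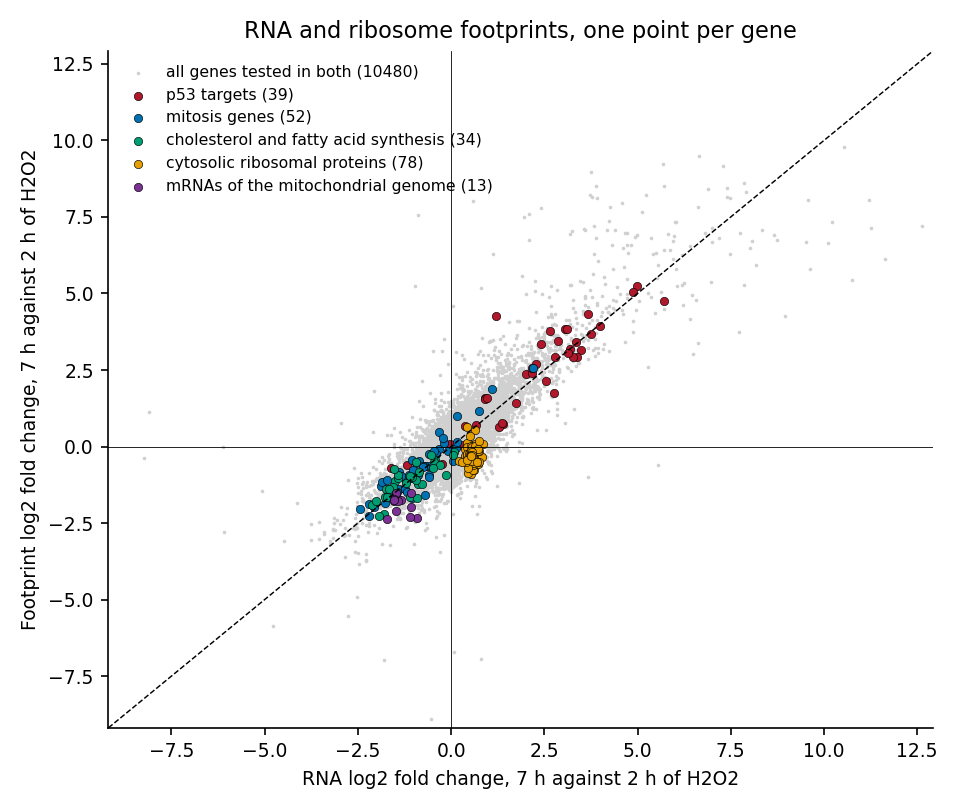
Log2 fold change from 2 h to 7 h of H2O2 in RNA (x axis) and in ribosome footprints (y axis), with 1 point per gene tested in both (10480 genes), the dashed line of equality and 5 gene lists in colour. The p53 targets lie along the line at the upper right, and mitosis and cholesterol genes along it at the lower left. The ribosomal protein genes lie to the right of 0 in RNA and mostly below 0 in footprints.

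Read-in, transcription that continues from an upstream gene into its downstream neighbour, was deposited as a true or false call per pair of neighbouring genes and RNA library. Of 5105 tested genes that are downstream in a pair, 42 had a call in either control library (0.823%), 195 in either 2 h library (3.82%) and 48 in either 7 h library (0.940%). Among the 218 such genes of the transient up class, 24 were called at 2 h (11.0%) and 2 at 7 h, and among 124 of the receding up class 11 (8.87%) and 1. Of 381 late up genes, 12 were called at 2 h (3.15%) and 4 at 7 h. The lowest level of a downstream gene with a call was 4.02 TPM, over 459 calls in the control and H2O2 libraries, and 20 of the 24 transient genes were under that level in both 7 h libraries. The fall in calls and the fall in level of the downstream gene are therefore not independent. Of the 195 genes called at 2 h, 103 were lower at 7 h in RNA, 44 higher and 48 not called, with a median of -0.26. Among all 5105 downstream genes, with or without a read-in call, 1968 were lower and 1815 higher.

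**Figure D5:**
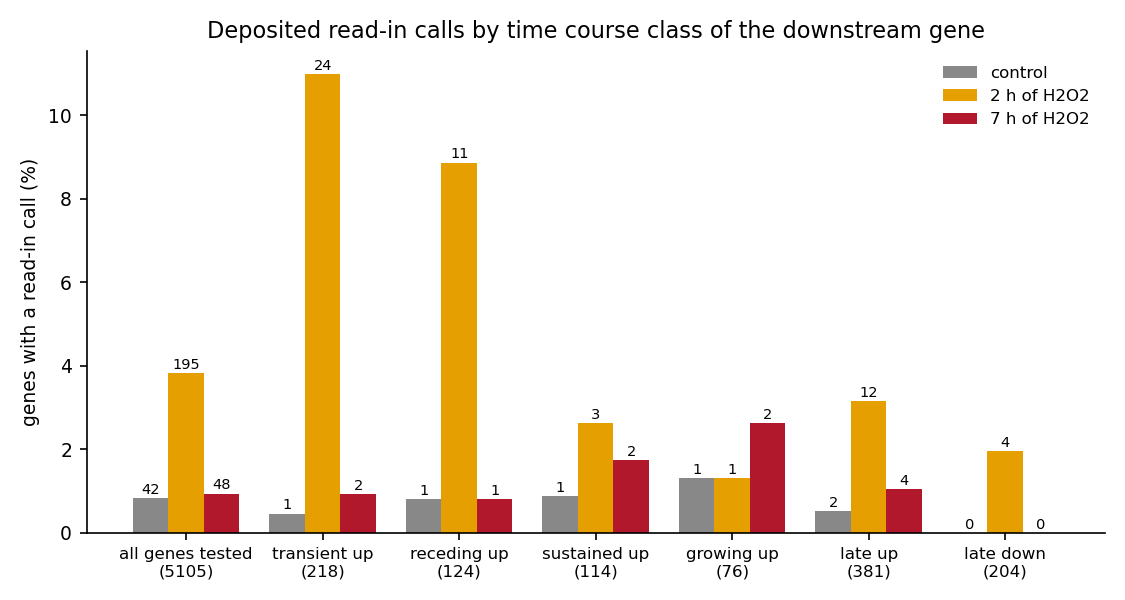
Share of downstream genes with a deposited read-in call in at least 1 library of the group (y axis, percent), for all genes tested that are downstream in a pair and for 6 time course classes, with the number of such genes under each name and the number called above each bar. Bars have no error, since each is 1 count over 2 libraries. At 2 h the transient up class reaches 11.0% and the receding up class 8.87%, against 3.82% of all genes.

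The steepest falls include genes with such calls. Rnf225, a gene for a RING finger protein, had read-in calls in both 2 h libraries and in no control or 7 h library, while it fell from 28.2 and 31.2 CPM to 2.06 and 3.24 CPM. Apoe, the gene of apolipoprotein E, is on GRCm38.p6 (chr7:19696244-19701310) 2 bases from Tomm40 (chr7:19701313-19715442), a subunit of the mitochondrial import pore, and had the same pattern of calls, with 30.0 and 27.6 TPM at 2 h and 2.13 and 2.86 TPM at 7 h. Outside 2 h both genes lay under 4.02 TPM, the lowest level of a gene with a call. Rnf225 had means of 1.34 TPM in the control and 1.73 TPM at 7 h, and Apoe had 1.67 and 2.17 TPM in the control. Their missing calls are therefore not independent of their low level. Rnf225 and Apoe did not pass the footprint filter. Neurl2, chosen after its values were seen, was the reverse, with read-in calls from Pltp in both 7 h libraries alone, and it went from 7.94 and 6.65 TPM to 24.1 and 24.9 TPM while Pltp went from 37.1 and 30.5 TPM to 450 and 436 TPM.

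The change over time under H2O2 was set beside that under KCl, a comparison added after the data were seen. The 2 sets of libraries are distinct at 2 h and 7 h. Under KCl, 9120 genes were called between the times (68.8%), 35.1% higher and 33.7% lower. The difference of the 2 time changes was called for 9009 genes (68.0%), 4307 with a higher and 4702 with a lower change under H2O2. For p53 targets, 35 of 41 had a higher change under H2O2 and 4 a lower one (32.5% and 35.5% of all genes), and the median change under KCl was 0.092. Mitosis genes were mostly lower under H2O2 and higher under KCl, where 36 of 53 were called higher and 7 lower, and the difference was called lower for 45. All 79 ribosomal protein genes had a higher change under H2O2, with a KCl median of -0.077, and 31 of 34 genes of cholesterol synthesis had a lower one, with a KCl median of 0.0090. Immediate early genes fell in both stresses, with 24 of 25 called lower under KCl, and the difference was called in 9 cases each way. Numbered zinc finger genes rose more under KCl, where 265 of 332 were called higher and 29 lower, and 205 had a lower change under H2O2.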

How the data were processed

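Polyadenylated RNA and ribosome footprints of NIH3T3 cells were sequenced, and the deposited expected counts and TPM per gene were used. The submitters' processing notes name STAR, Bowtie, RSEM and the mouse build mm10 (GRCm38), without their roles, and whether counting used strand is not stated there. The deposited ratio of read-in per gene pair, whose formula the authors do not give in the files, entered no comparison. Read-in calls are the authors' deposited true or false values per gene pair and library.

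Expected counts were rounded and fitted with edgeR 4.0.16 (R 4.3.3, TMM factors, filterByExpr, quasi-likelihood F test, Benjamini-Hochberg adjustment over all genes tested) on 10 libraries of 5 groups (control, H2O2 and KCl at 2 h and 7 h, 2 each) that shared 1 estimate of spread. The footprints were fitted likewise. Called means an adjusted p below 0.05, and 2-fold a log2 fold change of 1 or more in size. In simulated data for the RNA comparison 200 of 13256 genes were changed. Of those changed by 1 on the log2 scale 82.1% were recovered, and 8.33% of calls were false. In those for footprints (200 of 10545 genes) the values were 22.4% and 4.23%. The shares recovered and false both depend on how many genes change. In the real comparisons 73.4% of genes were called in RNA and 29.8% in footprints, so the simulated shares do not carry over to them.

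The members and the 29 gene lists were chosen with earlier results of these data known. Named genes are the 12 largest rises and falls with separate libraries and an average log2 CPM of at least 3, the 5 leading genes of 7 classes, and examples from the lists. Some genes that this rule names are not reported here. Alternatives used DESeq2 1.42.0, limma 3.58.1 on log2(TPM + 1) or log2(TPM + 0.1), other scaling factors and filters, fewer libraries and stricter folds. Promoter windows were matched by symbol to RefSeq for 10236 of 13256 genes. The libraries of heat stress and their controls were not used here.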

Additional observations from a re-analysis of the deposited data

Results flagged for a closer look

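The change from 2 h to 7 h differed between H2O2 and KCl for 9009 genes. The difference was tested as the H2O2 time change minus the KCl time change (edgeR's F test, Benjamini-Hochberg adjusted), and it was added after the data were seen. Among 11 genes with the largest rises, the difference on the log2 scale was 7.26 (SE 0.22) for Mmp15, 7.01 (SE 2.56) for Zfp750, which was near 0 under KCl, 6.45 for Sec14l5, 6.37 for Tbc1d8 and 6.11 for Jag2. It was 5.29 for Celf5, 4.88 for both Atg9b and Tex15, 4.65 for Palm3, 4.55 for Kcnj4 and 2.82 for Ddit4l. Each of these 11 genes rose under H2O2 and rose less, or fell, under KCl. These genes, and those of the falls below, were chosen by their change under H2O2, which enters the difference. The sign of the difference was thus favoured by the choice, and the values are a description. Among the largest falls, the difference was -5.62 for Prss35, -3.87 for Cyp39a1, -2.23 for Cxcl1, -2.16 for Edn1, -1.81 for Tnfaip3, -1.80 for Thbs1 and -1.10 for Rnf225. For Ctgf, Adamts1 and Pygm the difference was not called.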

How the results depend on the processing

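The number of genes called between 7 h and 2 h was 8694 to 9789 when each of the 6 control and H2O2 libraries was left out in turn (KCl libraries were not) and 9064 with DESeq2, and the share of calls that were higher lay between 45.5% and 51.7% over the alternatives, with a median over all genes of -0.071 to 0.0079. Limma on log2(TPM + 1) gave 2224 genes with a 2-fold change, 960 of them lower. With at least 1 CPM in 4 libraries, 1255 genes rose by 2-fold, and the classes held 260 transient up, 80 receding up, 186 sustained up, 68 growing up and 16 reversing up genes. With a log2 threshold of 1.5 they held 133 receding up, 116 growing up, 740 late up, 6 reversing up, 48 transient down, 0 receding down, 18 sustained down, 2 growing down, 271 late down and 4 reversing down genes. Both settings select fewer genes by construction.

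Leaving out the same libraries in turn (for footprints, the 4 of H2O2) gave 140 to 182 receding up genes (140 without 7 h replicate 1), 7 to 17 growing down genes (17 without 2 h replicate 1), and 1828 to 2518 footprint calls. Of these, 1225 to 1637 were higher and 600 to 960 lower, the smallest numbers being those without 7 h replicate 1 or 2. The causes were not tested. Read-in calls required in both libraries gave 120 genes at 2 h and 25 at 7 h. In the classes this left, for transient up, 0 in the control and 1 at 7 h, for receding up 0 in the control and 6 at 2 h, for sustained up 1 at 7 h, for growing up 0 in the control, and for late up 1 in the control and 2 at 7 h.

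Deviations of libraries with the same replicate number correlated at 0.088 between 2 h and 7 h of H2O2, so the numbers were not taken to pair samples. With a replicate block, 9819 genes were called in RNA, 4985 higher and 4834 lower, 3495 of them by 2-fold, 3217 in footprints and 9070 for the difference from KCl. Footprint libraries held fewer counts than those of RNA, and the effect of depth on the calls was not tested.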
